A study of Mus musculus with 9 samples.

Results

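Oxidative phosphorylation is run by 5 protein complexes of the inner mitochondrial membrane, and the nuclear genes that encode their subunits were followed here in mouse dorsal root ganglia (DRG) after sciatic nerve transection. The members were chosen by name, with earlier results of these data known. They are the genes whose array name starts with Nduf (complex I), Sdha to Sdhd (complex II), Uqcr (complex III), Cox4 to Cox8 (complex IV) or Atp5 (complex V). This gave 82 genes on 113 probes, out of 27671 names on 41174 probes. Of these, 81 genes on 108 probes were above background on at least 4 of the 9 arrays and were tested among 20904 genes, and Cox8c, a complex IV isoform known from testis, was above background on no array and was not tested. Among the 81 genes, 77 encode subunits and 4 carry the name only. Ndufaf1 encodes an assembly factor of complex I, Cox7a2l a factor that joins complexes III and IV, Cox4nb a subunit of a membrane protein insertion complex of the endoplasmic reticulum, and Atp5s a factor related to the ATP synthase.

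Complexes I and II take electrons from NADH and succinate and pass them to ubiquinone, complex III passes them on to cytochrome c, and complex IV hands them to oxygen. Complexes I, III and IV pump protons as they do so, and complex V, the ATP synthase, lets the protons flow back to make ATP. Sensory neurons depend on this supply to fuel ion pumping and transport along very long axons. Some complex IV subunits come in pairs, with one isoform made in most tissues and another in heart and skeletal muscle.

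The samples were L3/L4 DRG of adult mice, 4 uninjured and 5 injured, and all 9 carried the labels jun.wt and cre.neg, so that no group lacked Jun or expressed Cre. Injured DRG were taken 3 days after transection according to the labels and the methods, while the study's results text gives a shorter interval. The labels identify no animals, so that p-values measure the spread between these samples only. Each DRG sample was labelled with Cy5 and hybridised with a universal mouse reference RNA in Cy3, and the unit throughout is the log2 ratio of Cy5 over Cy3 for a level and a difference of such ratios for a change. Whole ganglia were used, and fewer cells of a type and less RNA per cell cannot be told apart in such samples.

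The median Cy5 intensity was between 156 and 238, and between 71.0% and 78.9% of spots were above background. The number of arrays limits the precision. Atf3, an injury-induced transcription factor, rose by 5.14 and Sprr1a by 4.99 with no overlap between the groups. The arrays lie on 3 slides: one holds 3 uninjured arrays, one holds uninjured array 1 with injured arrays 1, 2 and 5, and one holds injured arrays 3 and 4, and a difference between slides cannot be fully told apart from injury. Skeletal muscle genes stood out on injured array 4, and less so on injured array 2. The 13 tested genes of that list had a mean shift of 3.29 and 1.83 there, against −0.10 to 0.30 on the other 7 arrays, and their summed Cy5 signal ran from 2538 to 2704 on uninjured and from 2452 to 62633 on injured arrays. For the counts of called genes in these lists, 11.5% of all genes tested rose and 13.9% fell. Macrophage genes were also spread: 3 of 12 rose, and their summed signal was between 21802 and 40583 on uninjured and between 26850 and 96979 on injured arrays. Between 2 and 6 of the 12 rose with 1 array left out, and none with the slide as a fixed block. The 4 tested genes of red blood cells had a mean shift of 1.42, 0.71 and 1.03 on injured arrays 2, 4 and 5, and their summed signal was between 29787 and 42973 on uninjured and between 35545 and 243922 on injured arrays, although none passed the test. Of 5 satellite glia genes 2 rose, a number that was 1 under several alternatives, and none fell. Of 12 DRG neuron genes, 1 fell and none rose, with a median change of −0.02. Their summed signal was between 1449750 and 1563410 on uninjured and between 1310620 and 1421420 on injured arrays. By that sum every injured array lay below every uninjured one. Their mean shift was between −0.12 and 0.13 on uninjured and between −0.30 and 0.21 on injured arrays. By that mean the groups overlapped, and injured array 5 was the highest of all. With median centring 4 of the neuron genes fell (median −0.14), as did 4 with Cy5 alone (median −0.16), and with the log ratio computed by the scanner software none did (median 0.03). None of 7 genes of myelinating Schwann cells was called, and 1 of 5 genes of dividing cells rose. Of 7 fat genes 1 rose and 1 fell. These counts changed in some alternatives. The mean shift of the fat genes was between −0.70 and 0.53 on uninjured and between −0.29 and 0.84 on injured arrays. The part of these cell types in the values of the members was not tested.

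The promoters of 4 members are shown, because they belong to the largest decreases (Sdhd, Sdha and Ndufb5) and to a complex IV subunit with nearly no change (Cox6a1). Each holds 250 bases before and 50 after a RefSeq transcription start, written 5′ to 3′ on the gene's strand, on build GRCm38.p6. Sdhd lies at chr9:50603800-50604099 (minus strand), Sdha at chr13:74350191-74350490 (minus strand), Ndufb5 at chr3:32736813-32737112 (plus strand) and Cox6a1 at chr5:115348909-115349208 (minus strand). Capitals mark matches, on either strand, to motifs of NRF1 (GCGCA, any base, then GCGC), ETS-family factors including GABP (CCGGAAG) and YY1 (AAGATGGC), factors known to control nuclear genes of the respiratory chain.
Sdhd: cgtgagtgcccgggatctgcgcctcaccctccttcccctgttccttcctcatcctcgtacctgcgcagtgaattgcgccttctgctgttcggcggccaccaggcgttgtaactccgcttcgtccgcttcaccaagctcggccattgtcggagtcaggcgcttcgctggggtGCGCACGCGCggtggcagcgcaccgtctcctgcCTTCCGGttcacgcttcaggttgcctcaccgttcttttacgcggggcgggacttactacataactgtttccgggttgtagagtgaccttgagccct
Sdha: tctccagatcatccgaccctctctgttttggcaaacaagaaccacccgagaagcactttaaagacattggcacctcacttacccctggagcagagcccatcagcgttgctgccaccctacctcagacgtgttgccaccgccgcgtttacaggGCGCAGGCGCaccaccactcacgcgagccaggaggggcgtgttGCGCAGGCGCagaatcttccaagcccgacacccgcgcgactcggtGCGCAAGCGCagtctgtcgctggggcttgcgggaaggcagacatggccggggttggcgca
Ndufb5: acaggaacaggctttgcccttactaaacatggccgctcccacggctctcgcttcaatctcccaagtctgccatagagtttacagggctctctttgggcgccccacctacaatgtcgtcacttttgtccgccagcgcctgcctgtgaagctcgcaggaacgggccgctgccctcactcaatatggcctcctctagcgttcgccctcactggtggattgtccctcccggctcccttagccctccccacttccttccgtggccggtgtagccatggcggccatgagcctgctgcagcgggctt
Cox6a1: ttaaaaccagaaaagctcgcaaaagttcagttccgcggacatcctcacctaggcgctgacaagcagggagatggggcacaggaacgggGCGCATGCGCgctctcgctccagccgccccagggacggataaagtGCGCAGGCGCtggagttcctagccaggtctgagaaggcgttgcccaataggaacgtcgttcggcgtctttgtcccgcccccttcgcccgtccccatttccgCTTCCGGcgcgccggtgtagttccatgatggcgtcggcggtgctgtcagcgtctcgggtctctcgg

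Promoter windows were found for 67 of the 81 members. The NRF1 motif was in 16 of them (23.9%), against 4.78% of 27025 windows of all genes. The ETS motif was also in 16 members (23.9%, against 9.12%), and the YY1 motif in 9 (13.4%, against 2.88%). Among the 13 windows of members that fell, 3 held the NRF1 motif, 4 the ETS motif and none the YY1 motif, and among the 54 windows of members that were not called the numbers were 13, 12 and 9. The Sdha window held 3 NRF1 matches, that of Sdhd 1 NRF1 and 1 ETS match, that of Cox6a1 2 NRF1 matches and 1 ETS match, and that of Ndufb5 none of the 3. By complex, the NRF1 motif was in 7 of 33 windows (I), 2 of 3 (II), 1 of 4 (III), 1 of 12 (IV) and 5 of 15 (V). The Cox6a1 window shown is the only one of complex IV with that motif. A match is a run of letters, and binding was not measured.

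Changes of the members after transection were small, and those that passed the test were decreases. At an adjusted p under 0.05 (limma), 14 of 81 members (17.3%) fell and none rose, whereas across all genes tested 25.4% were called, with 13.9% lower and 11.5% higher. Without adjustment, 17 lay lower and 1 higher (Cox6a2) at p under 0.05. By a Student test without adjustment 18 of the 81 members passed, all lower, against 35.1% of all genes in either direction. The 14 decreases were between 1.12-fold and 1.29-fold, and none reached 1.5-fold. Among the 77 subunits alone 11 fell (14.3%). The median change of the members was −0.04, against 0.00 for all genes. That median was −0.00279 without uninjured array 4 and −0.0862 without uninjured array 2, and with the log ratio of the scanner software it was −0.00471, against −0.00529 for all genes. All injured arrays lay below all uninjured arrays for 13 members, against 13.1% of all genes, and all above for no member, against 10.9%. For 77 of 81 members the 95% interval of the change lay inside a 1.5-fold change in either direction, which held for 81.4% of all genes.

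The number of decreases depended on the arrays and on the slide. It was 7 without uninjured array 1, 5 without uninjured array 3 and 8 without uninjured array 4. It was 9 without injured array 3 and 8 without injured array 4. The share of all genes called, in either direction, also fell. In the same order it was 19.1%, 19.8%, 20.8%, 24% and 20.6%, against 25.4% with all arrays. Median centring in place of loess gave 1 decrease, with 12.6% of all genes called. The slide as a fixed block gave none, with 5.61% of all genes called. All 14 members stayed lower in every fit. Within the slide that held both groups, 13 of 14 had all 3 injured arrays below the uninjured one. The 14 were picked as lower on these same arrays, so the kept direction is no separate support. For the 12 of them whose groups did not overlap, the order within that slide was also fixed in advance. Without injured arrays 2 and 4, on which muscle genes were high, 4 decreases remained among these 14, an alternative chosen after the data were seen. In that fit 14.3% of all genes were called.

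**Figure D1:**
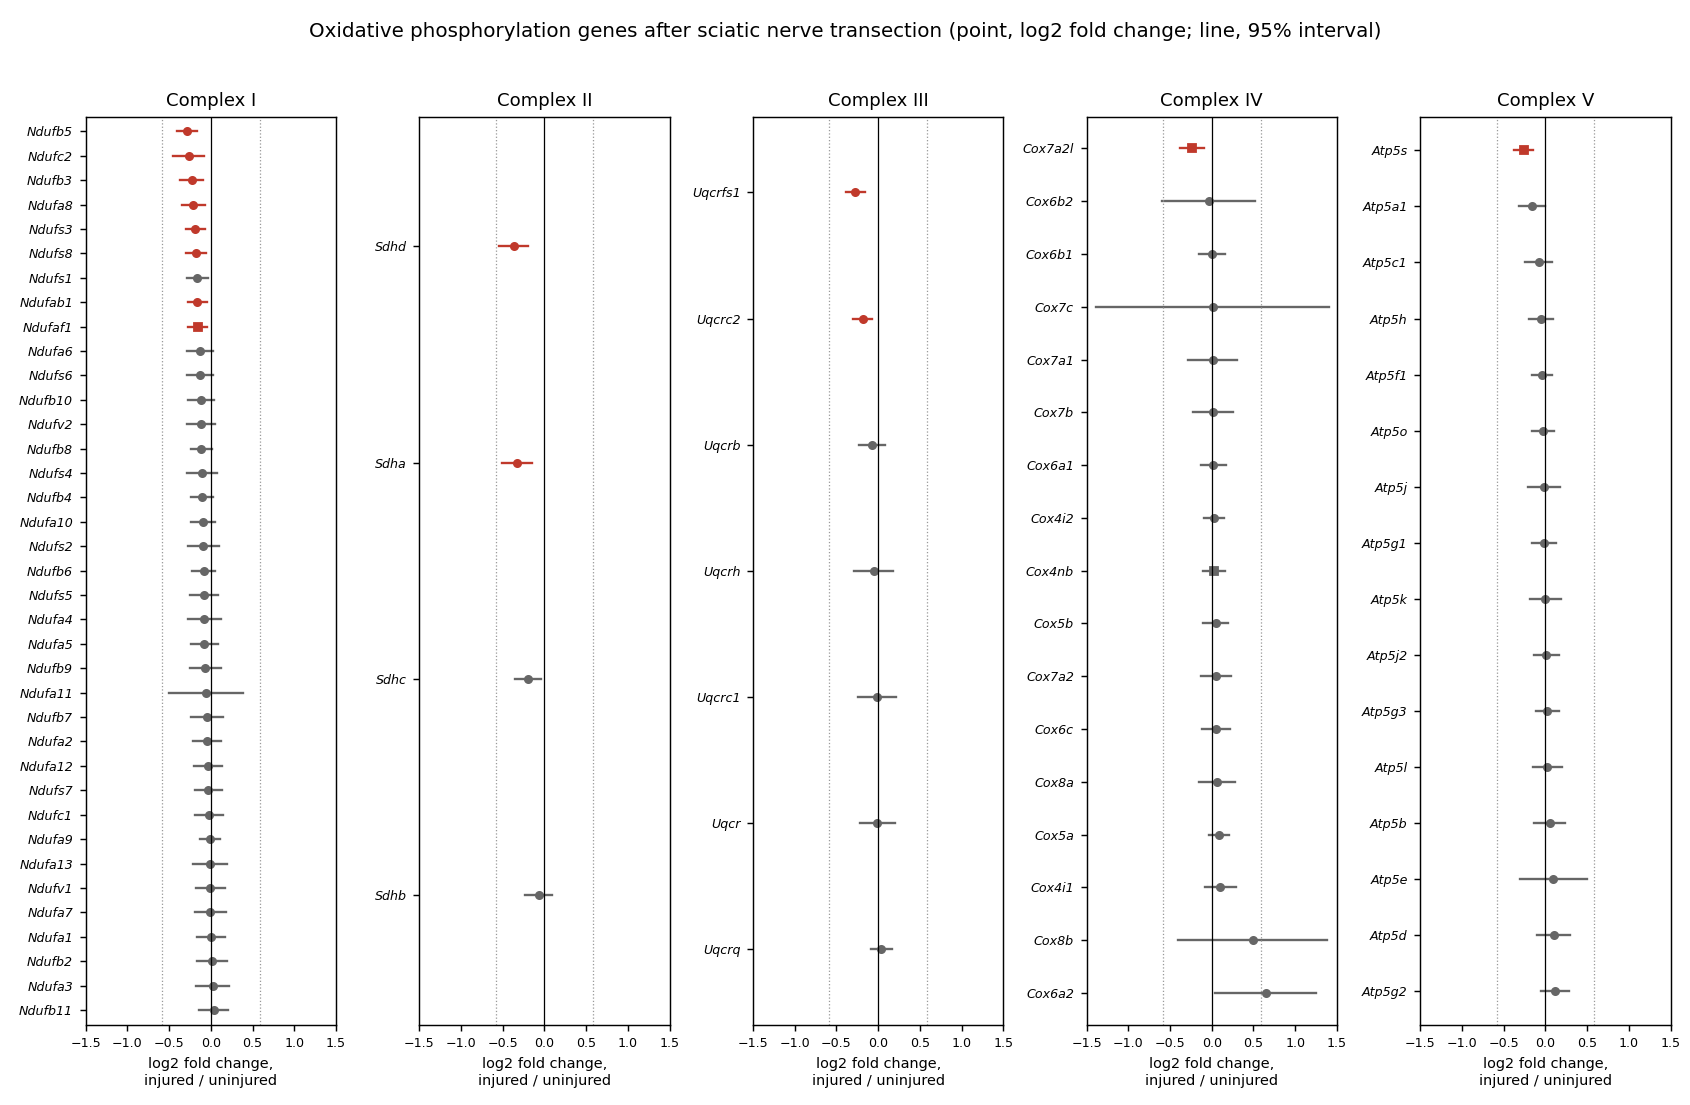
Log2 fold change (injured over uninjured, x axis) of each of the 81 tested members, with its 95% interval, by complex. Red marks an adjusted p under 0.05, squares mark the 4 genes that are not subunits, and dotted lines mark a 1.5-fold change. The 14 red members all lie left of 0, and 4 complex IV members (Cox6b2, Cox7c, Cox8b and Cox6a2) have intervals that reach past the dotted lines.

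The largest decreases were in complex II, the succinate dehydrogenase that also works in the TCA cycle. Of its 4 members 2 fell, Sdhd and Sdha, and all 4 lay below 0, with a median of −0.27. Of all genes tested 13.9% fell, and 10362 of 20904 lay below 0. Sdhd encodes a membrane anchor of the complex (probe at chr9:50575107-50575166, mm7). Its log2 ratio was −0.11, −0.32, −0.11 and −0.09 on uninjured arrays 1 to 4 and −0.46, −0.45, −0.44, −0.59 and −0.70 on injured arrays 1 to 5. Every injured array was below every uninjured array, although uninjured array 2 was low for its group. The change was −0.37 ± 0.08 (SE), a 1.29-fold decrease with an adjusted p of 0.0055.

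Sdha encodes the catalytic flavoprotein (probe at chr13:71255611-71255670, mm7). Its ratio was 1.43, 1.36, 1.49 and 1.27 on uninjured arrays and 1.24, 1.02, 1.06, 1.102 and 0.86 on injured arrays. The groups did not overlap, with injured array 1 close to the lowest uninjured array. The change was −0.33 ± 0.08 (SE), with an adjusted p of 0.012. The dimmer probe of Sdha changed by −0.22 and did not pass the test (adjusted p = 0.23 over all probes). Sdhc, the other membrane anchor, ran from −0.52 to −0.33 on uninjured and from −0.73 to −0.48 on injured arrays and missed the threshold (−0.20, adjusted p = 0.0591). Sdhb, the iron-sulfur subunit, was nearest to 0 in the complex (−0.07, adjusted p = 0.528), and its groups overlapped.

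In complex I, 8 of 37 members fell and none rose, and 34 of 37 lay below 0 with a median of −0.09. Across all genes tested 13.9% fell, and 10362 of 20904 lay below 0. With the log ratio computed by the scanner software the median of complex I was −0.05, and 27 lay below 0. Its median shift from the uninjured mean was 0.03, −0.14, 0.03 and 0.06 on uninjured arrays 1 to 4. On injured arrays 1 to 5 it was −0.16, −0.06, −0.11, −0.07 and −0.03, so that the groups overlapped. The members share such shifts, and the number below 0 does not count independent results. The largest decrease was that of Ndufb5, a membrane arm subunit (probe at chr3:32560081-32560140, mm7). Its ratio was 1.69, 1.72, 1.68 and 1.74 on uninjured arrays and 1.39, 1.45, 1.42, 1.35 and 1.497 on injured arrays. The groups were well apart and each was tight. The change was −0.29 ± 0.05 (SE, adjusted p = 0.00264), and Ndufb5 was the one member that still passed under median centring.

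Ndufc2 and Ndufb3 are also accessory subunits of the membrane arm. The Ndufc2 ratio was 0.93, 0.74, 0.99 and 0.93 on uninjured arrays and 0.63, 0.78, 0.76, 0.53 and 0.46 on injured arrays. Uninjured array 2 lay inside the injured range, so that the groups overlapped (change −0.26 ± 0.08 SE, adjusted p = 0.0408). The Ndufb3 ratio was 1.27, 1.21, 1.41 and 1.20 on uninjured arrays and 0.93, 1.03, 1.104, 1.04 and 1.09 on injured arrays. These groups did not overlap, and the change was −0.23 ± 0.06 (SE, adjusted p = 0.0224).

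The remaining decreases of complex I were smaller. Ndufs3 (−0.19) and Ndufs8 (−0.18) encode core subunits of the peripheral arm, Ndufa8 (−0.21) an accessory subunit, Ndufab1 (−0.16) the mitochondrial acyl carrier protein and Ndufaf1 (−0.16) the assembly factor. Both dimmer probes of Ndufab1 that were above background missed the threshold over all probes (−0.05, adjusted p = 0.726, and −0.16, adjusted p = 0.0817). These 5 genes were named after their values were seen, and in all of them the injured arrays lay below the uninjured ones. The 10 members named Ndufs or Ndufv, which include the core subunits, were all below 0, with a median of −0.11 and 2 called, and the 26 named Ndufa, Ndufb or Ndufc had 23 below 0, a median of −0.07 and 5 called. The 29 members of complex I that were not called had changes between −0.16 and 0.03. Of Ndufa3, an accessory subunit, the brighter probe changed by 0.02 and was not called, whereas the dimmer one fell over all probes (−0.21, adjusted p = 0.0233). Ndufa1, a small membrane arm subunit, was nearest to 0, at 1.22, 0.98, 1.26 and 1.23 on uninjured and 1.07, 1.26, 1.20, 1.24 and 1.09 on injured arrays.

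In complex III, 2 of 7 members fell and none rose, where 13.9% of all genes fell and 11.5% rose. Its median was −0.05, but 0.02 with the log ratio of the scanner software and 0.03 without uninjured array 4. Uqcrfs1 encodes the Rieske iron-sulfur protein (probe at chr13:29906041-29906100, mm7). Its ratio was 0.65, 0.58, 0.72 and 0.67 on uninjured arrays and 0.36, 0.41, 0.38, 0.40 and 0.35 on injured arrays. The injured arrays were close to each other and well below the rest (change −0.27 ± 0.05 SE, adjusted p = 0.00302). Uqcrc2, a core protein of the complex, had 0.68, 0.64, 0.69 and 0.60 on uninjured and 0.45, 0.48, 0.42, 0.53 and 0.47 on injured arrays. Its groups did not overlap either (change −0.18 ± 0.05 SE, adjusted p = 0.0229). The other 5 members lay between −0.08 and 0.04, with Uqcr nearest to 0.

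**Figure D2:**
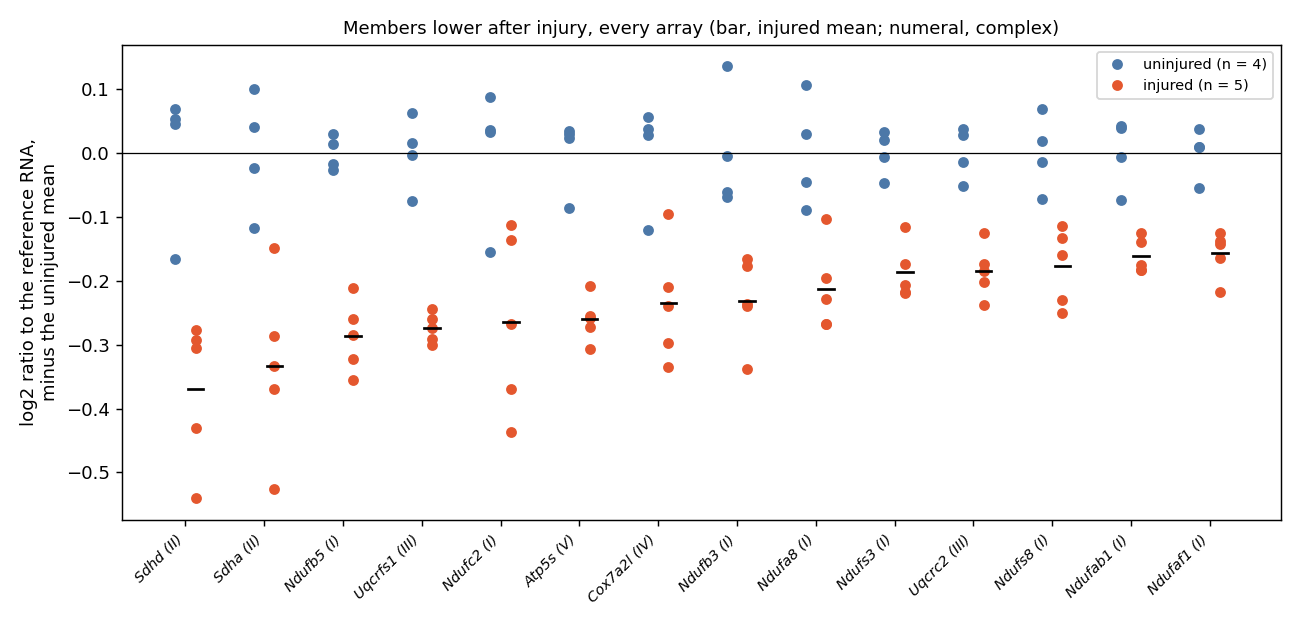
Log2 ratio to the reference RNA, minus the mean of the uninjured arrays (y axis), on each array for the 14 members that fell. Blue points are the 4 uninjured and orange points the 5 injured arrays, the bar is the injured mean and the numeral after each name is the complex. Injured and uninjured points overlap for Ndufc2 and Cox7a2l and are apart for the other 12 genes.

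Complexes IV and V gave no called subunit. None of the 15 complex IV subunits and none of the 15 complex V subunits passed the test in limma. Of all genes tested 25.4% passed it, with 13.9% lower and 11.5% higher. Without adjustment 1 complex IV subunit was higher (Cox6a2) and 1 complex V subunit lower at p under 0.05 (limma). The share of all genes at that unadjusted threshold was not counted. The 15 complex V subunits had changes between −0.16 and 0.11, with Atp5k, a small membrane subunit, nearest to 0. Of 17 complex IV members, 14 lay above 0, but with median centring 14 lay below 0, and with an offset of 0 or with Cy5 alone the median also fell below 0. No direction is therefore given for complex IV. The same holds for complex V, whose median was −0.01, and 0.04 with the log ratio of the scanner software.

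The called genes carrying the names of these complexes were not subunits. Atp5s had a ratio of 1.65, 1.65, 1.66 and 1.54 on uninjured and 1.35, 1.32, 1.37, 1.37 and 1.42 on injured arrays. The groups did not overlap, both probes fell, and the change was −0.26 ± 0.05 (SE, adjusted p = 0.00467). Cox7a2l had 0.08, 0.24, 0.23 and 0.26 on uninjured and 0.00, −0.04, −0.09, −0.13 and 0.11 on injured arrays. Its groups overlapped because uninjured array 1 was low (change −0.24 ± 0.07 SE, adjusted p = 0.0253), and within the slide that held both groups the change was −0.06. The brighter probe of Cox4nb changed by 0.03 and the dimmer one by −0.36, of which the second passed the test over all probes.

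Isoforms of a subunit were compared by the difference between their changes, and none of 7 pairs passed an exact permutation test over the arrays. In complex IV the change of the main form was taken from that of the tissue-restricted form. In complex V the change of Atp5g3 was taken from that of Atp5g1 or Atp5g2. The largest difference was that of Cox6a2, the heart and skeletal muscle form, against Cox6a1, the form of most tissues. The Cox6a2 ratio was −3.66, −3.95, −3.93 and −3.86 on uninjured arrays and −3.77, −3.13, −3.66, −2.16 and −3.28 on injured arrays. Injured array 4 was far above the rest, followed by injured arrays 2 and 5, and the other injured arrays lay within or near the uninjured range. Cox6a1 was 1.44, 1.28, 1.54 and 1.46 on uninjured and 1.46, 1.54, 1.48, 1.44 and 1.33 on injured arrays. The difference of the changes was 0.63 (exact two-sided p = 0.0794, and 0.556 adjusted over the 7 pairs), and the change of Cox6a2 itself missed the threshold (0.65 ± 0.27 SE, adjusted p = 0.112). With the slide as a random block Cox6a2 passed it (0.67, adjusted p = 0.0355), the one fit in which a member was called higher.

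Cox8b, the heart and muscle form paired with Cox8a, behaved in a like manner on one array. Its ratio was 0.08, 0.00, 0.21 and 0.24 on uninjured arrays and 0.27, 0.49, −0.11, 2.30 and 0.16 on injured arrays, so that injured array 4 alone stood far above all others. The difference from Cox8a was 0.43 (exact p = 0.556), and without injured arrays 2 and 4 it was −0.08. The array with the highest Cox6a2 and Cox8b was also the array with the highest muscle genes. Across the 9 arrays the genes most like Cox6a2 were Trim54, Myoz1 and Acta1, and those most like Cox8b were Ckmt2, Myh2 and Neb, all genes of skeletal muscle, and the part of muscle tissue in these values was not tested.

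**Figure D3:**
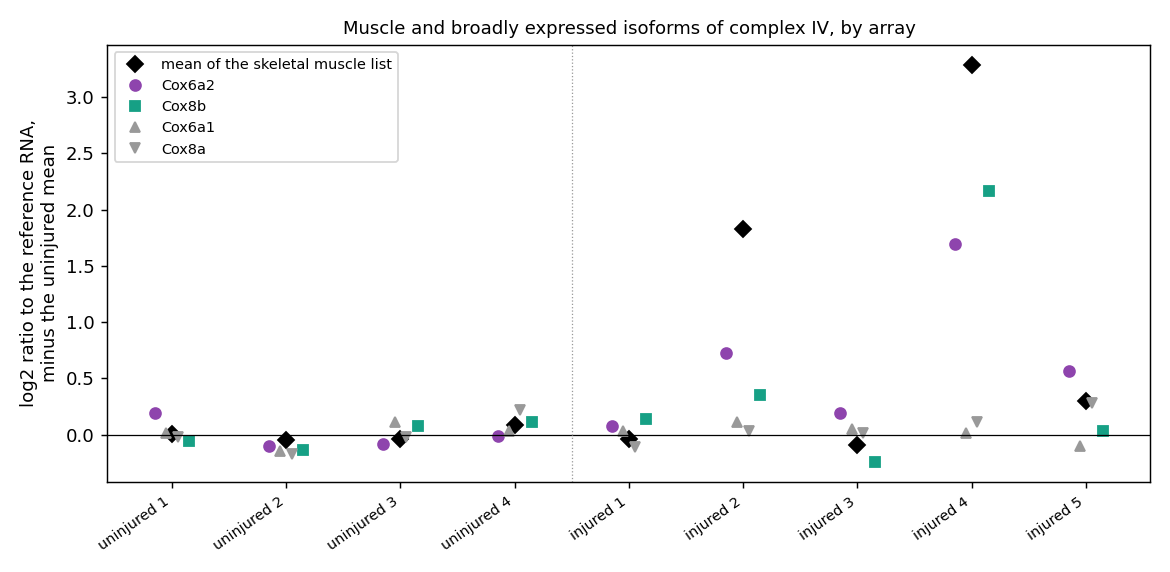
Log2 ratio to the reference RNA, minus the uninjured mean (y axis), on each of the 9 arrays (x axis) for Cox6a2, Cox8b, Cox6a1 and Cox8a, with the mean of the 13 skeletal muscle genes as diamonds. Cox6a2, Cox8b and the muscle mean are highest on injured array 4, whereas Cox6a1 and Cox8a stay near 0 on all arrays.

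The other 5 pairs differed by little. The differences were −0.08 for Cox4i2 against Cox4i1 (exact p = 0.508), −0.04 for Cox6b2 against Cox6b1 (exact p = 0.897), −0.04 for Cox7a1 against Cox7a2 (exact p = 0.698), −0.03 for Atp5g1 against Atp5g3 (exact p = 0.675) and 0.09 for Atp5g2 against Atp5g3 (exact p = 0.286). Atp5g1, Atp5g2 and Atp5g3 encode the same subunit c of the ATP synthase ring from 3 genes. Cox4i2, the form of complex IV subunit 4 known from lung, was dim and above background on 3 of 4 uninjured and all 5 injured arrays. Ndufa4, since placed in complex IV, changed by −0.08 (adjusted p = 0.574).

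Some members varied between arrays far more than the groups differed. Cox7c, a small subunit of complex IV, was at 0.53, −0.44, −2.33 and −0.26 on uninjured arrays and at −2.44, −0.37, −0.40, 0.50 and −0.37 on injured arrays. Each group held 1 array near 0.5, 1 array near −2.4 and the others between, and the change was 0.01 (adjusted p = 0.994). Its pooled SD within groups was 1.14, against a median of 0.11 over the members, and 36th among all 20904 genes. The most similar gene across the 9 arrays was Arsk, which also lies on chromosome 13 and was at −1.31 and −1.62 on the same low arrays and 0.75 and 0.58 on the same high ones.

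Ndufa11, a complex I subunit, was at 1.95, 1.91, 1.97 and 2.54 on uninjured arrays and 1.62, 2.35, 1.84, 1.81 and 2.54 on injured arrays. Uninjured array 4 and injured arrays 2 and 5 were the high ones, and both of its probes had nearly equal changes (−0.06 and −0.03). The most similar gene was Susd3, on another chromosome, which was highest on those same 3 arrays. Cox7c and Ndufa11 were picked after their values were seen.

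**Figure D4:**
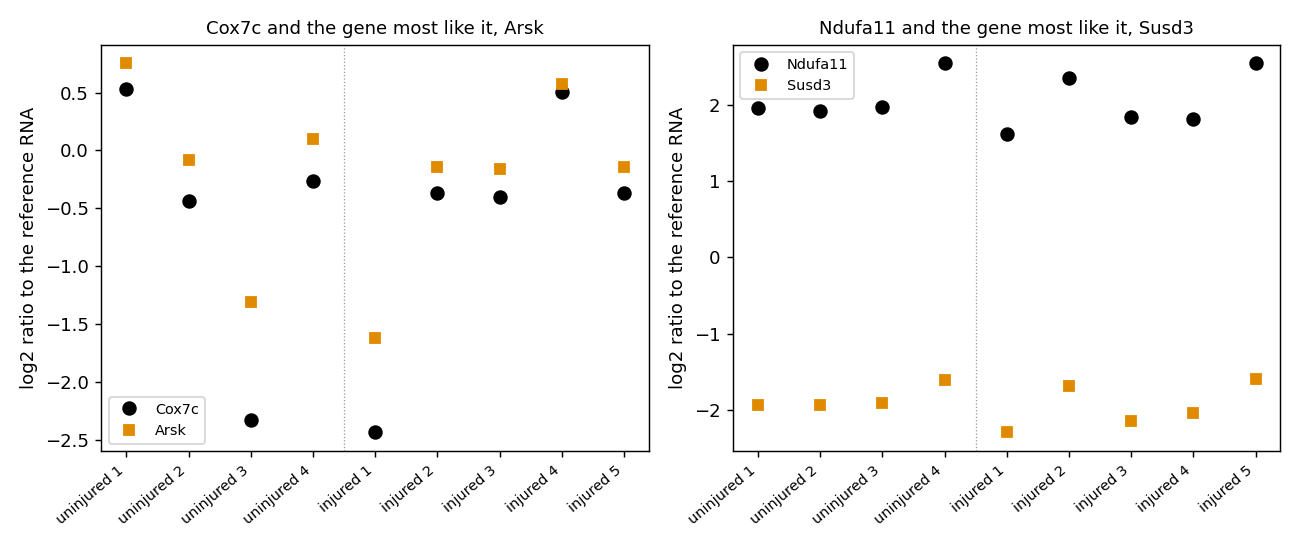
Log2 ratio to the reference RNA (y axis) on each of the 9 arrays (x axis) for Cox7c with Arsk and for Ndufa11 with Susd3. Cox7c and Arsk are lowest on uninjured array 3 and injured array 1, and Ndufa11 and Susd3 are highest on uninjured array 4 and injured arrays 2 and 5.

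Dimmer members carried most of the calls. Of the 41 dimmer members by mean brightness 13 fell (31.7%), and of the 40 brighter ones 1 fell (2.5%), against 13.9% of all genes tested. The dimmer members were dim only among the members. Their median brightness was 13.05 on the log2 scale, against 8.87 for all genes. Of the 5226 brightest genes tested, 13.4% fell and 17.4% rose. Brightness on an array depends on the probe, and its part in the calls was not tested. The Cy3 channel, which holds the reference RNA, gave no called member among 33 called genes of 20904 tested (0.158%). At an unadjusted p under 0.05 (limma) 9 members passed there. The share of all genes at that unadjusted threshold was not counted, so the 9 cannot be weighed.

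Other genes of mitochondria were counted from lists chosen with earlier results of these data known. Across all genes tested, 13.9% fell and 11.5% rose. Of 45 assembly factors, 17 fell and 1 rose, with a median of −0.16, and the members of that list include Ndufaf1. Examples are Coa6, which helps to build complex IV (−0.60, adjusted p = 0.000372), Sdhaf3 and Sdhaf4, which build complex II (−0.55 and −0.40), and Atpaf1, which builds complex V (−0.49). Of 13 genes of the TCA cycle, 3 fell (Idh3a, Suclg1 and Fh1) and none rose, and of 14 genes for electron carriers and ubiquinone synthesis 1 fell (Etfa, −0.52) and none rose. Among 78 mitochondrial ribosomal proteins 24 fell and 1 rose, with a median of −0.15, and among 78 cytosolic ribosomal proteins 38 rose and none fell, with a median of 0.23. Of 8 carriers and porins 1 rose and 1 fell. The medians of the assembly factors, the mitochondrial and the cytosolic ribosomal proteins kept their sign in every fit, whereas with median centring their calls dropped to 8, 4 and 0, and with the slide as a fixed block to 2, 2 and 0. Without injured arrays 2 and 4 the calls were 11, 7 and 7. The cytosolic ribosomal proteins had 19 calls without uninjured array 1, uninjured array 2 or injured array 2, 22 without injured array 4, 5 with Cy5 alone, 9 with an offset of 0 and 15 with all spots kept in the background fit. The mitochondrial ones had 15 decreases without uninjured array 1 and 16 without uninjured array 3. The TCA cycle had no call with median centring, with the slide as a fixed block or without injured arrays 2 and 4, and the fixed block also left none among the electron carriers or the carriers and porins. The electron carrier list had 3 decreases without injured array 5.

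Regulators of these genes went in both directions. Of 14, 4 fell and 1 rose, where 13.9% of all genes fell and 11.5% rose. With the slide as a fixed block none was called, 2 fell without uninjured array 4 or without injured arrays 2 and 4, 3 rose without uninjured array 2 and 2 without injured array 1, and none rose with median centring. Ppargc1a and Ppargc1b, coactivators of mitochondrial genes, fell by 0.31 and 0.51 on the log2 scale, and Esrra, a nuclear receptor they act on, fell by 0.37. Pprc1, a related coactivator, rose by 0.43. Nrf1 (0.13), Gabpa (0.11) and Yy1 (0.11), whose motifs were searched above, did not pass the test.

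**Figure D5:**
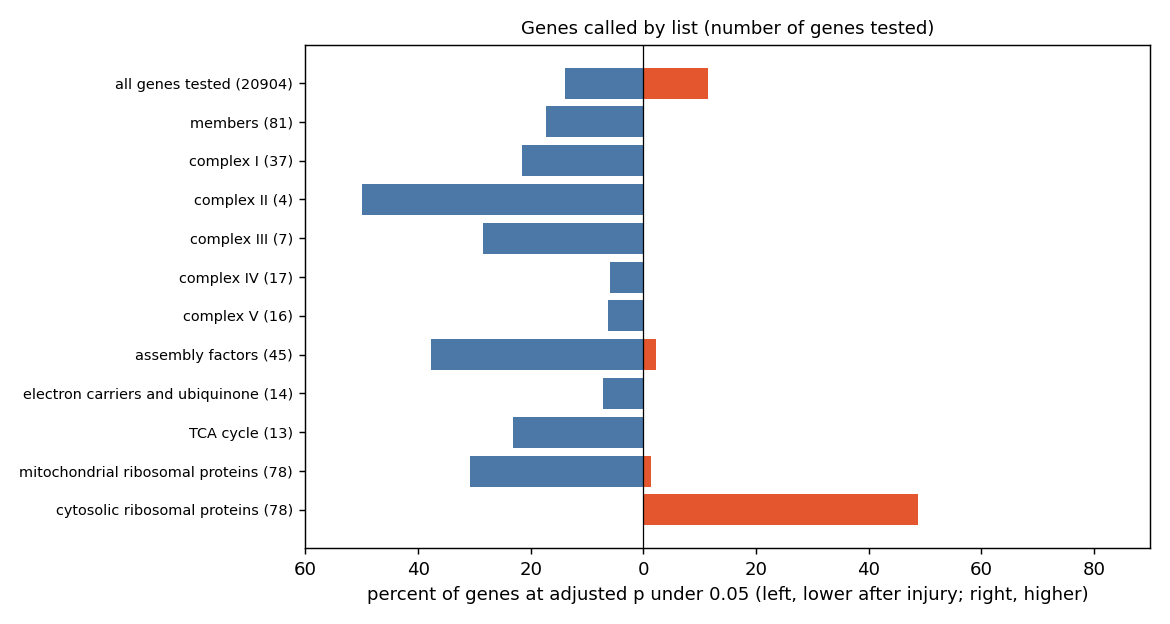
Percent of genes at an adjusted p under 0.05 (x axis), with genes lower after injury to the left in blue and genes higher to the right in orange, for all genes, the members, each complex and the lists (number of genes tested in parentheses). Members have calls to the left only, and the cytosolic ribosomal proteins to the right only.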

How the data were processed

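Two-colour Agilent arrays of L3/L4 DRG (4 uninjured, 5 injured) were used. The mean spot intensity and median local background intensity of each channel are the scanner values as deposited, and per the file headers Feature Extraction 10.5.1.1 made them on design 014868, build mm7. The log10 ratio in the same files is Agilent's own, deposited with its background model and dye normalization. The authors' processed values are deposited log2 ratios of Cy5 over Cy3. The methods name R and an earlier study for the statistics, without a threshold for the arrays.

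Here, in R 4.3.3 with limma 3.58.1, spots flagged as non-uniform in feature or background were left out on their array (2 to 26 per array, no member spot), because on injured array 2 Cy5 minus local background reached −9047 and pulled the background fit off. Background was corrected with normexp (offset 50), ratios were normalized by loess within arrays and spots of a probe averaged. Probes had to be above background in Cy5 on 4 or more arrays (31192 of 41174), and the brightest probe stood for its gene. Members kept their array names, and other probes took current symbols by accession (22951), symbol (6659) or older name (3109), with 8455 under their name in the file. The groups were compared in limma, by its moderated test, with p-values adjusted after Benjamini and Hochberg over 20904 genes. For isoform pairs all 126 ways to split the arrays were enumerated (exact permutation test, smallest p 0.00794). The procedure was tested on simulated data.

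Named were, per complex, up to 3 called members with the largest rise and fall, the isoform pairs, members whose probes had called changes of opposite sign (there were none) and the member nearest to 0. Ndufa3, Cox4nb and Sdhc were named after their values were seen. Members and lists were chosen with earlier results of these data known. Subunits encoded by mitochondrial DNA, and subunits whose array name has another form, were not analysed here as members. Promoters are from RefSeq, the first start listed per gene. Figures used Python and matplotlib. Alternatives covered background correction, normalization, filter, probe choice, slide as a block, array weights, thresholds and each array left out.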

Additional observations from a re-analysis of the deposited data

Results flagged for a closer look

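Far samples were looked for in 74 groups of arrays (37 named members in 2 groups each), of which chance flags about 1 in 20, and 7 were found. Cox8b on injured array 4 (2.30, nearest other injured array 0.49) lay on the array with the highest muscle genes, and the part of muscle tissue was not tested. Ndufa11 was high on uninjured array 4 (2.54, nearest 1.97), a level that injured array 5 also had. Sdhd was low on uninjured array 2 (−0.32, nearest −0.11), and Cox7a2l was low on uninjured array 1 (0.0832, nearest 0.23), the uninjured array that shares a slide with injured ones. Atp5s was low on uninjured array 4 (1.54, nearest 1.65), Sdhb was high on uninjured array 3 (1.00, nearest 0.91) and Atp5k was low on injured array 1 (0.73, nearest 0.96).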

How the results depend on the processing

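No paired analysis was possible because no label names an animal or a replicate number. The paper's crush experiments used the uninjured DRG of the other side as controls, and for the arrays it names uncrushed DRG. Whether injured and uninjured samples here share animals is not known. All 14 decreases kept their direction in every alternative, each of which reuses the arrays they were picked from. The 14 called members became 1 with median centring (2640 genes called in all, member median −0.17). With the slide as a fixed block they became 0 (1173 genes called), and also 0 when a 1.5-fold change was asked for as well (1230 genes called). Without injured arrays 2 and 4 they became 4 (2996 genes called, chosen after the data were seen). With 1 array left out they numbered between 5 and 14, with between 4002 and 5446 genes called in all. By complex, median centring left 1 call in complex I and 0 in the others, the slide block and the fold threshold 0 in each, and the fit without injured arrays 2 and 4 left 1 call in complexes I, II and III each and 0 in IV. With 1 array left out complex I had between 1 and 9 calls, complex III between 1 and 2 and complex IV between 0 and 1. Complex I had 5 calls with Agilent's log ratio and 5 with the authors' values, complex III 1 with Agilent's log ratio, complex IV 0 with Cy5 alone, 2 with probes averaged and 2 with the slide as a random block (within-slide correlation −0.207), where 16 members fell and 1, Cox6a2, rose, and complex V 2 with a Student test without adjustment. The cause was not tested.

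Values that changed sign were all of members or pairs that passed no test in the fit reported. With all spots kept in the background fit the value was −0.0213 for Atp5g3, −0.0364 for Cox6a1, −0.00829 for Cox7a1 and −0.00262 for Cox7c. Without background correction the value was 0.00198 for Cox6b1. With an offset of 0 the value was −0.0764 for Atp5g3, −0.11 for Cox6a1, −0.0146 for Cox7a2, −0.00420 for Cox7c, −0.0418 for Cox8a, 0.0739 for the pair Cox4i1 and Cox4i2, 0.0208 for the pair Cox7a2 and Cox7a1 and 0.000829 for the pair Atp5g3 and Atp5g1. With median centring the value was −0.0317 for Atp5g2, −0.14 for Atp5g3, −0.0624 for Cox4i1, −0.0618 for Cox4nb, −0.17 for Cox6a1, −0.0818 for Cox7a1, −0.0866 for Cox7a2, −0.0920 for Cox7c, −0.10 for Cox8a, −0.0820 for Ndufa3, 0.12 for the pair Cox4i1 and Cox4i2 and 0.00487 for the pair Cox7a2 and Cox7a1. With Agilent's log ratio the value was 0.0102 for Atp5g1, 0.0520 for Ndufa1 and 0.0342 for Uqcr. With the authors' values the value was −0.0240 for Cox6a1, 0.00331 for Cox6b1, 0.0289 for Ndufa1 and −0.00600 for Ndufa3. With Cy5 alone the value was −0.0773 for Atp5g3, −0.0175 for Cox4nb, −0.0930 for Cox6a1, 0.32 for Cox6b2, −0.00979 for Cox7a1, −0.0585 for Cox7a2, −0.0448 for Cox7c, −0.0649 for Cox8a, 0.00272 for Ndufa1, 0.0701 for the pair Cox4i1 and Cox4i2, 0.38 for the pair Cox6b1 and Cox6b2 and 0.0488 for the pair Cox7a2 and Cox7a1. With probes averaged the value was −0.17 for Cox4nb and −0.0961 for Ndufa3. With the slide as a fixed block the value was 0.0125 for Atp5g1, −0.0370 for Atp5g3, −1.99e-05 for Cox4i2, −0.00215 for Cox4nb, 0.47 for Cox6b2, −1.59 for Cox7c, 0.22 for Ndufa11 and −0.00195 for Ndufa3. With the slide as a random block the value was 0.00433 for Atp5k, 0.00979 for Cox6b1, 0.00679 for Ndufa1 and 0.00893 for Uqcr. With array weights the value was −0.0291 for Cox7a1 and −0.0111 for Ndufa3. Without injured arrays 2 and 4 the value was 0.000337 for Atp5g1, −0.00726 for Atp5g3, −0.00802 for Cox6a1, 0.00533 for Cox6b2, −0.0294 for Cox7a1, −0.44 for Cox7c, −0.0244 for Cox8b, 0.0193 for the pair Cox6b1 and Cox6b2, −0.0831 for the pair Cox8a and Cox8b and 0.00759 for the pair Atp5g3 and Atp5g1. With 1 array left out the lowest and highest values were −0.0689 and 0.0488 for Atp5k, −0.0443 and 0.0391 for Cox6b1, −0.0638 and 0.0300 for Ndufa1, −0.0959 and 0.0447 for Uqcr, −0.0227 and 0.0484 for Atp5g3, −0.0302 and 0.0566 for Cox6a1, −0.0662 and 0.0954 for Cox7a1, −0.000340 and 0.0982 for Cox7a2, −0.0317 and 0.0800 for Ndufa3, −0.56 and 0.46 for Cox7c, −0.0532 and 0.0103 for Atp5g1, −0.22 and 0.20 for Cox6b2, −0.19 and 0.0856 for Ndufa11, −0.18 and 0.19 for the pair Cox6b1 and Cox6b2 and −0.10 and 0.0481 for the pair Cox7a2 and Cox7a1.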

Other observations

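Subunit genes whose array name does not have the form of the rule were read from current symbols. Uqcr10 of complex III (0.05), Atp5md (0.09) and Atp5mpl (−0.06) of complex V, Ndufv3 of complex I (−0.15) and Cox7b2 of complex IV (−0.10) did not pass the test. Cyc1, which encodes cytochrome c1 of complex III, changed by −0.08 (adjusted p = 0.686).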
